A study of Mus musculus with 2 samples.

Results

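The 10 genes described here encode enzymes, and partners of enzymes, that write or remove DNA methylation and the polycomb mark on histone H3, and they were taken by name: Dnmt1, Uhrf1, Dnmt3a, Dnmt3b, Tet1, Tet2, Tet3, Ezh2, Ezh1 and Suz12. All 10 had a row in the count table of 19294 genes, and all 10 reached 10 counts in one library or both, as did 17235 genes of the table. The libraries are mRNA-seq libraries of intestinal organoids, crypt-derived epithelial cultures grown in Matrigel with EGF, Noggin and R-spondin. One library came from untreated organoids (control) and one from organoids given dextran sulfate sodium (DSS), a polymer used to injure the gut lining, for 4 days, and the dose used for sequencing is not given in the sources used here. Both libraries carried the genotype Lgr5-EGFP-IRES-creERT2, an allele that places EGFP and an inducible Cre under the Lgr5 locus, and no sorting of EGFP-positive cells or pooling of cultures is described for them. Depth was 65493032 counts for control and 59746968 for DSS.

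With 1 library per condition there was no replicate check, so no test was made, and every interval given is an exact 95% interval that covers counting error only. Values are log2 ratios of counts after TMM scaling (a correction for total counts and library composition), DSS over control, unless levels in CPM (counts in 1000000 TMM-scaled counts) are named. The median log2 ratio of all genes was -0.06 with this scaling and -0.31 with total counts alone. Of the genes past a log2 ratio of 1 in either direction, 48.9% were higher in the DSS library with TMM scaling and 37.1% with total counts.

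DNA methylation is copied at each round of replication, when UHRF1 binds hemimethylated CpG sites behind the fork and recruits the maintenance methyltransferase DNMT1. DNMT3A and DNMT3B place new methyl groups, and the TET dioxygenases oxidize 5-methylcytosine as a step of its removal. Polycomb repressive complex 2 (PRC2) methylates lysine 27 of histone H3 through EZH2 or EZH1, each held in the complex by SUZ12 and EED. EZH2 is known as the form of dividing cells and EZH1 as a form that is also present in resting cells, and in the intestine DNMT1, UHRF1 and EZH2 are best known from the dividing cells of the crypt.

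The maintenance pair was far lower in the DSS library, the ubiquitous de novo enzyme Dnmt3a was nearly level, Tet2 and Tet3 were higher, and the catalytic subunits of PRC2 parted, with Ezh2 lower and Ezh1 slightly higher, or level (-0.02) when scaled by total counts. Of the 10 genes, 7 had a log2 ratio below 0 and 3 above, with a median of -1.07. Of the 17235 genes, 8963 were below 0 and 8272 above. A ratio of -1 or lower was reached by 5 of the 10 genes, Uhrf1, Dnmt1, Ezh2, Dnmt3b and Tet1, against 20.2% of the 17235 genes. A ratio of -2 or lower was reached by 3 of them, against 6.54% of all genes. Tet1, with 132 and 5 counts, reached the count minimum only through the control library. With 10 counts required in both libraries, a choice made after seeing the data, 4 of 9 genes were at -1 or lower, against 18.9% of 15666 genes, and 2 of 9 were at -2 or lower, against 5.74%. None of the 10 reached 1, which 19.3% of all genes did, or 2, which 7.87% did. In bulk RNA, fewer cells of a type and less RNA per cell cannot be told apart, and this holds for every ratio given here.

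**Figure D1:**
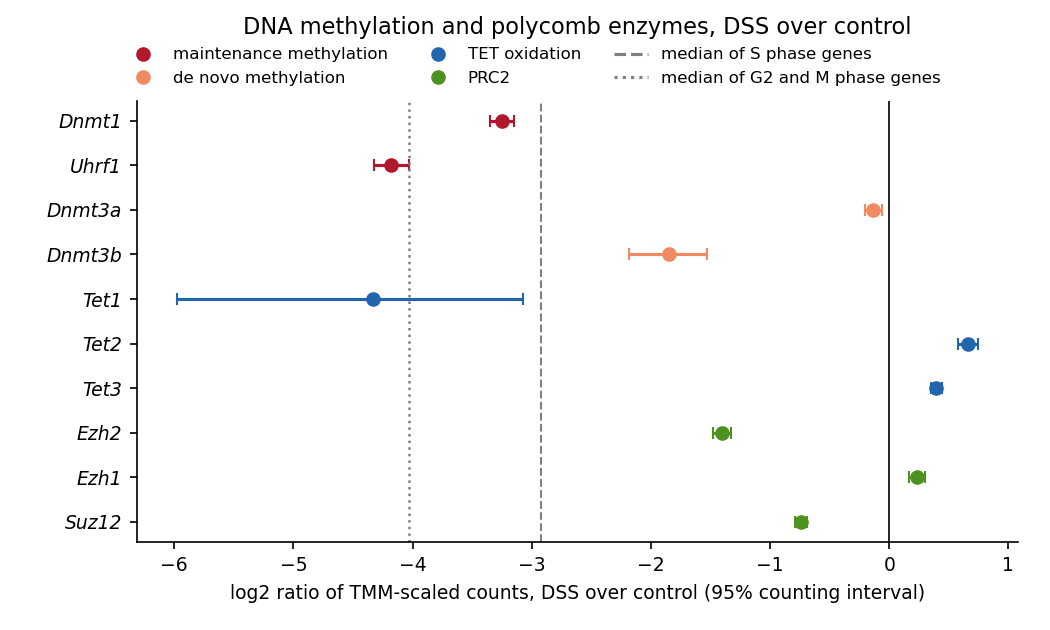
Log2 ratio of TMM-scaled counts, DSS over control, of the 10 genes (points, colored by role), with 95% counting intervals (bars) from 1 library per condition, and the medians of 30 S phase genes (dashed) and 22 G2 and M phase genes (dotted). Dnmt1 at -3.25 lies between these medians and Uhrf1 at -4.18 below both, and Dnmt3a, Tet2, Tet3 and Ezh1 lie between -0.13 and 0.66.

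Uhrf1, the reader that brings DNMT1 to newly copied DNA, lies at chr17:56303321-56323486 on the plus strand of GRCm38. It had 9519 counts in the control library and 402 in the DSS library, or 133 and 7.35 CPM. This is an 18.1-fold lower level (interval 16.4 to 20.0), a log2 ratio of -4.18 (-4.32 to -4.03), and 0.673% of all genes had a ratio as low or lower. Dnmt1, the maintenance methyltransferase itself, lies at chr9:20907209-20959888 on the minus strand and had 10918 and 878 counts, or 153 and 16.1 CPM. Its level was 9.50-fold lower (8.87 to 10.2), a log2 ratio of -3.25 (-3.35 to -3.15). The reader thus had the lower ratio of the pair, by -0.93 (-1.11 to -0.75), a difference that does not depend on library scaling. Uhrf2, the paralog of Uhrf1, had 2458 and 959 counts and a log2 ratio of -0.97, so that Uhrf1 lay below it by -3.21 (-3.39 to -3.03). These paired comparisons of Uhrf1 were chosen after the values were seen.

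The promoter windows of the maintenance pair are shown because letters of the E2F site, the element bound by the E2F factors that act on genes of the G1 to S transition, stood in both. Windows of 300 bases, from 250 before to 50 after each RefSeq start site (GRCm38.p6), were searched on both strands for TTTCCCGC, TTTCGCGC, TTTGCCGC and TTTGGCGC, and matches are in capitals. Of the 32851 windows of all genes, 744 (2.26%) held at least 1 of these. The Uhrf1 window at chr17:56304063-56304362 (plus strand) held TTTCGCGC from 185 to 178 bases before the start. The Dnmt1 window at chr9:20952574-20952873 (minus strand) held GCGCGAAA, the other strand of TTTCGCGC, from 219 to 212 bases before the start and TTTGGCGC from 34 to 41 bases after it, counting the start as base 1. The other windows of these genes, 1 of Uhrf1 and 2 of Dnmt1, held no match. A match describes letters and is not evidence of binding.
Uhrf1: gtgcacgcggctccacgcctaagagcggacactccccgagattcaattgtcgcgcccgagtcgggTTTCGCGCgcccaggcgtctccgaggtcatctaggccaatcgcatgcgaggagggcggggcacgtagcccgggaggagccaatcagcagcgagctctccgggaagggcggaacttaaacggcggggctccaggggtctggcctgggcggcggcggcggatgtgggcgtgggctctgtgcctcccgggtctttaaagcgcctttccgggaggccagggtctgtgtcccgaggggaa
Dnmt1: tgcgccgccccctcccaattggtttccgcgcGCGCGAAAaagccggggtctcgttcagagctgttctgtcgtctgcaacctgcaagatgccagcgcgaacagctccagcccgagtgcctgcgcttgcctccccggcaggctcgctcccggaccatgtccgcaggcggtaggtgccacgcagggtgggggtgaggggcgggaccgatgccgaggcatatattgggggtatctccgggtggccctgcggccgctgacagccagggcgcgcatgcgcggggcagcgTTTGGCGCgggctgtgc

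Some other genes of methylation maintenance had ratios close to those of the pair. Hells, a chromatin remodeler needed for methylation of repeats, had 4455 and 257 counts and a log2 ratio of -3.73. Cdca7, which works with HELLS and is also used as a stem cell marker, had 5149 and 224 counts and a ratio of -4.13. Lig1, the ligase that joins Okazaki fragments and binds UHRF1, had 5801 and 355 counts and a ratio of -3.64. All 3 lay between Dnmt1 and Uhrf1. Trim28, the corepressor that keeps methylation at imprinted regions and repeats, had 19997 and 4625 counts and a ratio of -1.72. Usp7, a deubiquitinase that acts on UHRF1 and DNMT1 and on many other proteins, was nearly level at -0.10, with 12269 and 8741 counts. The list of methylation writers and maintenance, which includes 4 of the 10 genes, had 12 genes analyzed. Of these 12, 7 were at -1 or lower, against 20.2% of all genes. Another 1, Zfp57, was at 1.10 (0.85 with total counts) from 36 and 59 counts. The median of the list was -1.79, against -0.06 for all genes.

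The de novo methyltransferases differed from each other. Dnmt3a (chr12:3806007-3914443, plus strand) had 3948 and 2750 counts in control and DSS, or 55.2 and 50.3 CPM. Its log2 ratio of -0.13 (-0.20 to -0.06) was close to the median of all genes and stayed between -0.39 and -0.04 over the scalings tried. Dnmt3b (chr2:153649450-153687730, plus strand), which is best known from early embryos and stem cells, had 453 and 96 counts, 3.60-fold lower in the DSS library (2.89 to 4.54) and a ratio of -1.85 (-2.18 to -1.53). Dnmt3b lay below Dnmt3a by -1.72 (-2.06 to -1.39), and Dnmt1 lay below Dnmt3a by -3.11 (-3.24 to -2.99).

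The make-up of the DNMT family therefore turned over between the libraries. Dnmt1 gave 71.3% of the counts of the 3 methyltransferases in the control library (Clopper-Pearson interval 70.5% to 72.0%) and 23.6% in the DSS library (22.2% to 25.0%). Dnmt3a gave 25.8% and 73.8%. Per kilobase of the longest protein-coding transcript, Dnmt1 held 78.4% of the family in control and 32.8% in DSS, and the summed level of the family was 33.1 and 8.34 RPKM (CPM per kilobase). These shares per length rest on the transcript chosen. Dnmt3a has 13 annotated coding transcripts with a median length of 814 bases and a longest one of 9685. With the median length used for every gene of the family, Dnmt1 held 28.8% and 4.52%.

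The TET genes had ratios in both directions. Tet3 (chr6:83362373-83459084, minus strand) had the highest level per length of the family, 8.78 and 11.5 RPKM, with 6849 counts in control and 6885 in DSS, or 95.7 and 126 CPM. Its log2 ratio was 0.40 (0.35 to 0.44). Tet2 (chr3:133463679-133545139, minus strand), a gene well known for its mutations in blood cancers, had 2076 and 2513 counts, or 29.0 and 46.0 CPM, and a ratio of 0.66 (0.58 to 0.75). Both were higher in the DSS library with every scaling tried, from 0.14 to 0.49 for Tet3 and from 0.41 to 0.75 for Tet2, and neither reached a ratio of 1. Of all genes, 66.4% had a ratio as low as that of Tet3 or lower, and 73.5% as low as that of Tet2 or lower. Tet3 lay below Tet2 by -0.27 (-0.37 to -0.17). Tet1 (chr10:62804570-62908996, minus strand), known from pluripotent cells, had 132 and 5 counts and a ratio of -4.33, with a wide interval from -5.98 to -3.08 that the low count sets. Per length, Tet1 held 1.06% of the family in control and 0.0384% in DSS, and the summed TET level was 12.1 and 16.6 RPKM. These shares too rest on the transcript chosen. With the median transcript length used for every gene of the family, Tet1 held 12.8% in control and 0.520% in DSS. For Tet1 that length is 567 bases, against 14369 for the longest.

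The list of TET enzymes and genes that complete the removal of oxidized methylcytosine had 18 genes and a median of -0.80. Of the 18, 12 had a ratio below 0 and 6 above, beside 8963 and 8272 of all 17235 genes. At -1 or lower were 7 of the 18, against 20.2% of all genes, and none was at 1 or higher, against 19.3%. Tdg, the glycosylase that excises oxidized cytosines, had 4891 and 1843 counts and a ratio of -1.02. Neil3, a glycosylase of replicating cells, had 2232 and 71 counts and the lowest ratio of the list, -4.59. Apex1, the endonuclease of base excision repair, had a ratio of -2.38 from 3470 and 510 counts, and the glycosylase Mbd4, which is also a methyl-CpG binding protein, -2.71 from 437 and 51. Gadd45b, a stress-induced gene linked to active demethylation, was on the other side at 0.96 (0.70 with total counts), with 2729 and 4049 counts. Its paralogs parted, with Gadd45a at -0.54 from 4378 and 2299 counts and Gadd45g at 0.63 from 762 and 898. The methyl-CpG binding proteins, Mbd4 among them, had a median of -0.44 over 10 genes, 3 of them at -1 or lower and none at 1 or higher. Mbd2, the most abundant of the list per length at 57.8 and 39.7 RPKM, was at -0.54, and Mbd3, a subunit of the NuRD complex, was at -1.64 from 3305 and 810 counts.

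The PRC2 catalytic subunits exchanged places. Ezh2 (chr6:47530139-47595341, minus strand) had 5767 counts in control and 1666 in DSS, or 80.6 and 30.5 CPM, a 2.64-fold lower level (2.50 to 2.79) and a log2 ratio of -1.40 (-1.48 to -1.32). Ezh1 (chr11:101191115-101226463, minus strand) had 3811 and 3430 counts, or 53.2 and 62.7 CPM, and its ratio of 0.24 (0.17 to 0.30) turned to -0.02 with total counts. The difference between the paralogs, Ezh2 below Ezh1 by -1.64 (-1.74 to -1.54), does not depend on the scaling. Ezh2 gave 60.2% of the counts of the pair in the control library (59.2% to 61.2%) and 32.7% in the DSS library (31.4% to 34.0%). Per length, its share was 69.6% in control and 42.3% in DSS, and with median transcript lengths 72.6% and 46.0%, so Ezh1 was the more abundant of the pair in the DSS library by each measure.

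**Figure D2:**
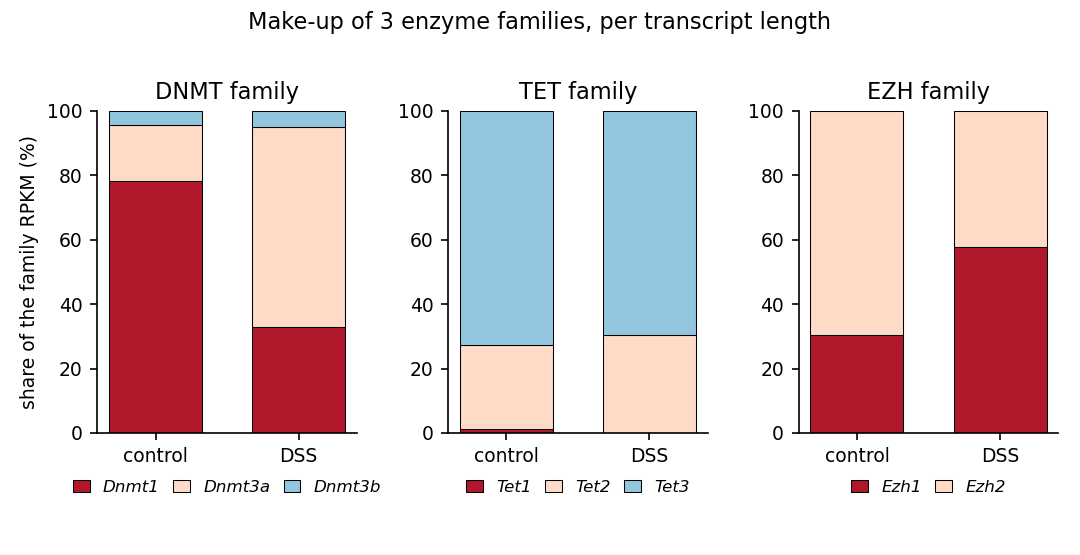
Share of each family's summed RPKM (longest protein-coding transcript, stacked bars, %) that each gene holds in each library, 1 library each. The share of Dnmt1 is 78.4% and 32.8%, that of Ezh2 69.6% and 42.3%, and that of Tet3 72.7% and 69.7%.

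Suz12 (chr11:79993106-80034123, plus strand), the scaffold subunit without which EZH2 and EZH1 are not active, had 9835 and 4494 counts, or 137 and 82.2 CPM. Its level was 1.67-fold lower in the DSS library (1.61 to 1.73), a log2 ratio of -0.74 (-0.79 to -0.69). Eed, the subunit that binds the finished mark, had 3351 and 1527 counts and a ratio of -0.75. These subunits differed by 0.00 (-0.10 to 0.11), while Ezh2 lay below Suz12 by -0.66 (-0.76 to -0.57). Both comparisons were chosen after the values were seen. The histone-binding subunits, which also serve in other chromatin complexes, were lower still: Rbbp4 had 12449 and 3476 counts and a ratio of -1.45, and Rbbp7 107280 and 14150 counts and a ratio of -2.53. Over the 6 core genes, which include Ezh2, Ezh1 and Suz12, the median was -1.07, with 3 at -1 or lower and none at 1 or higher, against 20.2% and 19.3% of all genes.

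The PRC2 windows are shown because the E2F letters stood in those of Ezh2 and Suz12 and not in that of Ezh1. The Ezh2 window at chr6:47594981-47595280 (minus strand) held TTTGGCGC from 4 to 11 bases after the start. The Suz12 window at chr11:79992856-79993155 (plus strand) held TTTCCCGC from 219 to 212 bases before the start. The Ezh1 window at chr11:101226414-101226713 (minus strand) held none of these letters. Capitals again mark the matches.
Ezh2: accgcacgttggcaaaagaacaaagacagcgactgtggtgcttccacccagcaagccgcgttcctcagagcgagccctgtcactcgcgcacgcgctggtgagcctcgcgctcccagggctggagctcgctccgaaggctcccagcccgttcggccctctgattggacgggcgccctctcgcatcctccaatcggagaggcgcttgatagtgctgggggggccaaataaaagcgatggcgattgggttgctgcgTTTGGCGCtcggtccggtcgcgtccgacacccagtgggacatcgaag
Suz12: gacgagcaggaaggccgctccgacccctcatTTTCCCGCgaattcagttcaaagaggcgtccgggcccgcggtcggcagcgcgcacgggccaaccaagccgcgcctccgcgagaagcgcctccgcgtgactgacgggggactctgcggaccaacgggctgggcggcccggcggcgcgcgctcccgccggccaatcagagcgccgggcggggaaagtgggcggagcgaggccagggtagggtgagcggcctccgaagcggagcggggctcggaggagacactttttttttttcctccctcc
Ezh1: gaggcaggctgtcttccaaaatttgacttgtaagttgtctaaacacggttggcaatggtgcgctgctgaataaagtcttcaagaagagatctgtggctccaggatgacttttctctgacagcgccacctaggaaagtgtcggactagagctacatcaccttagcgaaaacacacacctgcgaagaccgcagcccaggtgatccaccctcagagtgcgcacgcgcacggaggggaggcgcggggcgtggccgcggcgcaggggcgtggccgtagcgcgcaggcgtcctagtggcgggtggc

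Over the 10 genes, the E2F letters stood in 4 of 15 windows, those of Uhrf1, Dnmt1, Ezh2 and Suz12, and in none of Dnmt3a, Dnmt3b, Tet1, Tet2 or Tet3. The same letters stood in 10 of the 25 windows of the S phase genes and in 1 of the 17 windows of the G2 and M phase genes. The letters of the CHR element of late cell cycle genes (TTTGAA or TTCGAA) stood in 3 of the 15 windows, against 19.2% of all windows and 82.4% of those of the G2 and M phase genes. The CCAAT box (CCAAT) stood in 7 of the 15, against 37.4% of all windows, 14 of the 25 of the S phase genes and 16 of the 17 of the G2 and M phase genes. No match of one element shared bases with a match of another in these 15 windows.

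Accessory subunits that steer PRC2 had a median near 0, 0.13 with TMM scaling and -0.13 with total counts, over 8 genes, and the mean was -0.23. Phf19, a polycomb-like protein known from dividing and stem cells, had 559 and 58 counts and a log2 ratio of -2.88. Its paralog Phf1 was on the other side at 1.31, from 704 and 1335 counts, and the third paralog Mtf2 was at -0.75. Jarid2, a subunit of the variant complex PRC2.2, was nearly level at 0.16. Of the 24 genes of polycomb repressive complex 1 (PRC1), which reads the mark of PRC2 and ubiquitinates histone H2A, 5 were at -1 or lower, a share close to the 20.2% of all genes, and none at 1 or higher, against 19.3%, with a median of -0.46. The catalytic subunits Rnf2 and Ring1 were at -0.63 and -0.69, and Bmi1, the PRC1 subunit known for the upkeep of stem cells, at -0.14 from 1591 and 1104 counts. Those at -1 or lower were Cbx6, Kdm2b, Cbx2, L3mbtl2 and Bcor, from -1.64 to -1.10.

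The demethylases of lysine 27 were both higher in the DSS library. Kdm6b, the inducible demethylase of lysine 27 that inflammatory signals are known to raise, had 5571 counts in control and 9340 in DSS. Its log2 ratio was 1.13, or 0.88 with total counts. Kdm6a, the constitutive paralog, had 3894 and 4192 counts and a ratio of 0.49. Kdm6b lay above Kdm6a by 0.64 (0.56 to 0.72), a comparison chosen after the values were seen. The list of demethylases and H2A deubiquitinases had 8 genes. None was at -1 or lower and 2 were at 1 or higher, against 20.2% and 19.3% of all genes. These were Kdm6b, which lay below 1 with total counts, and Asxl3. Asxl3, with 6 and 28 counts, reached the count minimum only through the DSS library. The median of -0.02 lay close to that of all genes, and the mean, which Asxl3 raised, was 0.32. Among 25 other histone methyltransferases 4 were at -1 or lower and 1 at 1 or higher, no larger shares than the 20.2% and 19.3% of all genes, with a median of 0.02 that became -0.23 with total counts and a mean of -0.31. Those lower were Suv39h2 at -3.47 and Suv39h1 at -3.44, which write methylation of lysine 9 of histone H3 in heterochromatin, Smyd2 at -2.04 and Nsd2 at -1.31. Kmt2c, an enhancer methyltransferase, was higher at 1.24, or 0.98 with total counts.

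**Figure D3:**
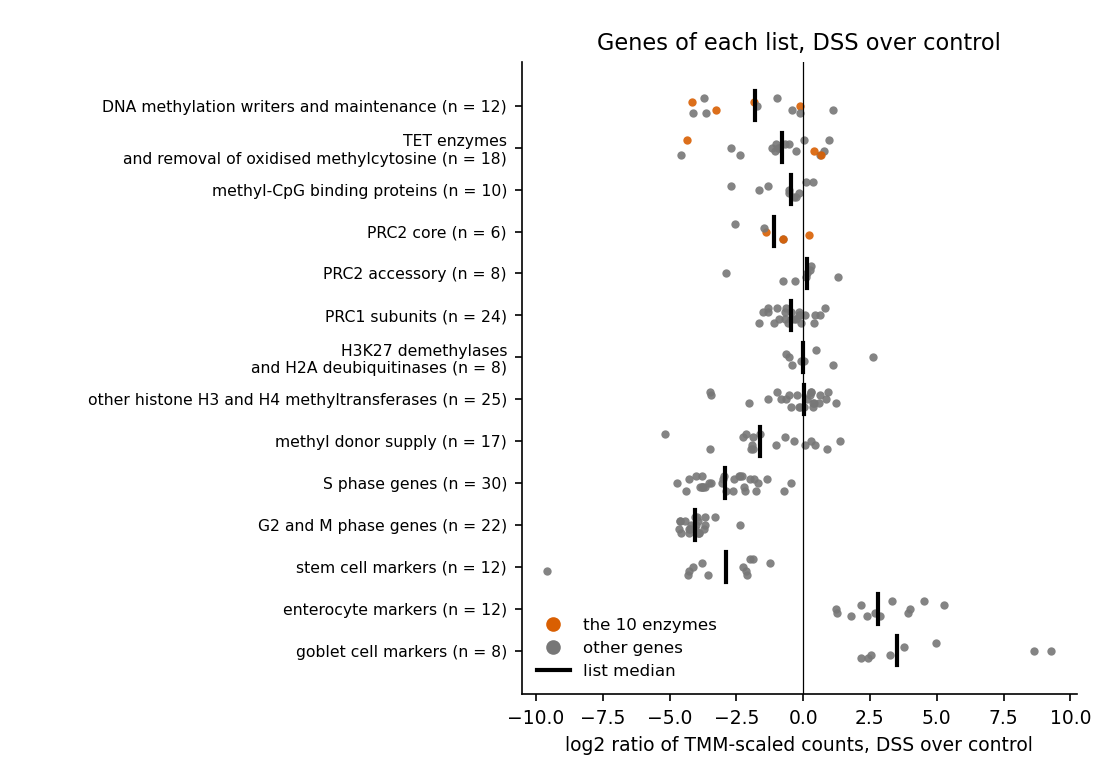
Log2 ratio of TMM-scaled counts, DSS over control, for the genes of 14 lists that reached the count minimum (points, vertical offsets only for display), with the 10 enzymes in orange and list medians as bars. The maintenance list (median -1.79) spreads from -4.18 to 1.10, the demethylase list centers at -0.02, and the S phase, G2 and M phase and stem cell lists lie below 0 as a whole.

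The order of levels per length changed between the libraries. In the control, Uhrf1 was highest at 37.1 RPKM, followed by Suz12 at 31.4, Ezh2 at 28.9 and Dnmt1 at 26.0, all above Ezh1 at 12.7 and Tet3 at 8.78. Dnmt3a at 5.70, Tet2 at 3.16, Dnmt3b at 1.47 and Tet1 at 0.128 came last, and the counting intervals of neighbors in this order did not overlap. In the DSS library Suz12 led at 18.8 RPKM, followed by Ezh1 at 14.9, Tet3 at 11.5 and Ezh2 at 10.9, with overlapping intervals for Tet3 (11.3 to 11.8) and Ezh2 (10.4 to 11.5). The intervals of Dnmt3a at 5.19 and Tet2 at 5.01 (4.81 to 5.21) also overlapped, and Dnmt1 at 2.74 and Uhrf1 at 2.05 now stood below both. Dnmt3b at 0.406 and Tet1 at 0.00636 stayed last. With median transcript lengths Dnmt3a, for the reason given above, stood first in both libraries. No spread between cultures is known, so neighbors whose counting intervals are apart are not shown to differ between conditions.

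**Figure D4:**
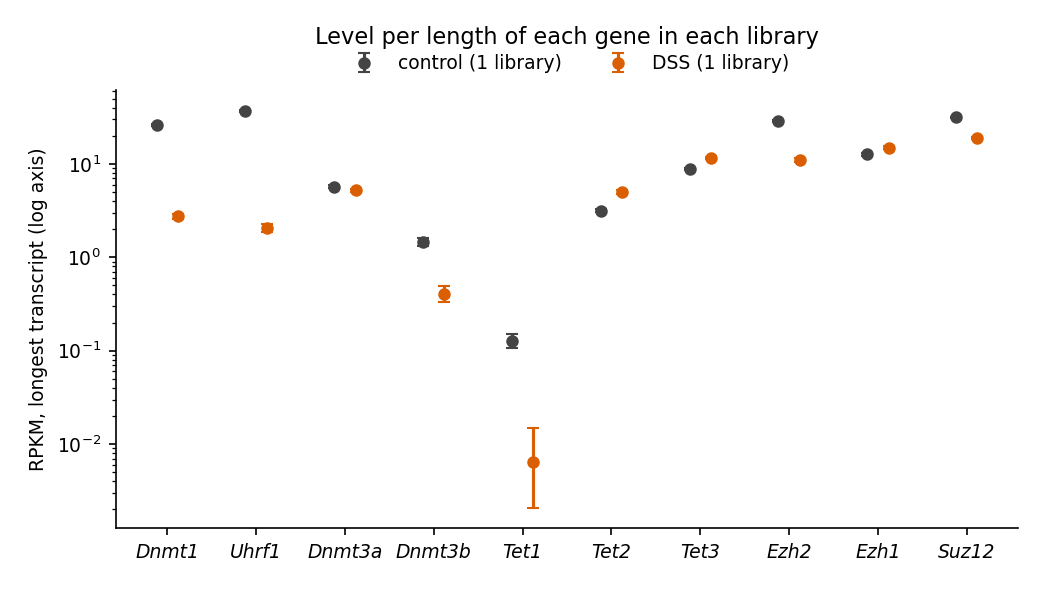
RPKM (longest protein-coding transcript, log axis) of the 10 genes in the control (gray) and the DSS library (orange), 1 library each, with 95% counting intervals. Uhrf1 goes from 37.1 to 2.05 RPKM and Dnmt1 from 26.0 to 2.74, while Tet2, Tet3 and Ezh1 are the 3 genes with the higher level in the DSS library.

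Cell cycle genes were lower in the DSS library too, with a median of -2.92 over 30 S phase genes and -4.03 over 22 G2 and M phase genes. The lowest of them were Mcm5 at -4.70, Mcm3 at -4.39, Pole at -4.27 and Mcm2 at -4.00 in the first list and Aurkb at -4.65, Foxm1 at -4.61, Cdc20 at -4.61 and Ccna2 at -4.56 in the second. Uhrf1 had a lower ratio than 27 of the 30 S phase genes, and Dnmt1 than 18 of the 30. Of the 22 G2 and M phase genes, 13 had a higher ratio than Uhrf1 and 1 a higher ratio than Dnmt1. Among the S phase genes, Ezh2 had a lower ratio than 3 of the 30, Suz12 than 2, Dnmt3b than 6 and Tet1, with its low counts, than 28. Tet1 was also lower than 17 of the 22 G2 and M phase genes, while Dnmt3b, Ezh2 and Suz12 lay above all 22. Dnmt3a, Tet2, Tet3 and Ezh1 lay above every gene of both lists. Against Mki67, the proliferation marker, which had 29090 and 1367 counts, Uhrf1 differed by -0.15 (-0.32 to 0.01), Dnmt1 by 0.78 (0.65 to 0.90) and Ezh2 by 2.62 (2.51 to 2.73), comparisons chosen after the values were seen. The interval for Uhrf1 held 0, and Dnmt1 and Ezh2 were higher relative to Mki67 in the DSS library. The part of these cell cycle genes in the ratios of the enzymes was not tested.

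Genes with log2 ratios nearest to an enzyme, among those within 2-fold of its control CPM, were found over these 2 libraries only. For Uhrf1 they were Aqp4, Pclaf and Nusap1, from -4.20 to -4.17. For Dnmt1 they were Paics, Cdk1 and Hmgb2, from -3.32 to -3.19. For Ezh2 they were Maged1, Spred1 and Nol9, all at -1.40, and for Ezh1 Chn2, Atp5mpl and Nectin1, all at 0.24.

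The labels name the cells intestinal stem cells. All 12 stem cell markers had counts in the control library, where Lgr5 had 18849 and Olfm4 13109, and markers of other epithelial types were also present. The 12 stem cell markers summed to 1395 CPM in control and 250 CPM in DSS, and 12 enterocyte markers to 3605 and 27590 CPM. All 12 stem cell markers were at -1 or lower, against 20.2% of all genes, with a median of -2.90. The lowest were Olfm4 at -9.59, Ascl2 at -4.31, Axin2 at -4.26 and Cdca7 at -4.13. All 12 enterocyte markers were at 1 or higher, against 19.3% of all genes, with a median of 2.79, though with total counts not all of them reached 1. The highest were Apoa1 at 5.27, Apoa4 at 4.54, Krt20 at 3.99 and Alpi at 3.94. Goblet cell markers had a median of 3.51 over 8 genes, led by Clca1 at 9.29, Zg16 at 8.64, Muc2 at 4.98 and Fcgbp at 3.77. The markers of the labelled cell type were thus present in both libraries and far lower in that of DSS, and the part of this shift in the ratios of the 10 enzymes was not tested.

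Most markers of cells from outside the epithelium had no row, and the others were at 11.5 CPM or lower in either library. Of 9 mesenchymal markers 4 had a row, with a summed level of 1.44 CPM in control and 2.10 CPM in DSS, mostly from Pdgfrb at 0.936 and 1.17 CPM, and Col3a1, Dcn and Lum were not analyzed here. Of 10 immune markers 4 had a row, with 14.1 and 24.6 CPM in sum, mostly from Itgam at 5.24 and 11.5 CPM and Cd68 at 6.86 and 11.4 CPM, and Ptprc and Cd3e were not analyzed here. In the annotation, exons of Dnmt3a, Tet2, Ezh2 and Suz12 overlap noncoding genes on the opposite strand, none of which has a row in the table. Those of Rbbp7 overlap the protein-coding gene Txlng on the opposite strand, which had 1220 and 1109 counts. The libraries were stranded and the strand setting used for counting is not given in the sources used here.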

How the data were processed

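Per the labels, mRNA of 1 control and 1 DSS library was sequenced from stranded poly(A) libraries. The authors deposited unscaled gene counts, and single-sample files named as FPKM held the same counts for all 19294 genes. HISAT2 and StringTie are named in the submitters' processing notes, and versions, genome build and counting settings are not given in the sources used here. No listed gene had 0 counts in either library.

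Counts were scaled with TMM factors (edgeR 4.0.16, R 4.3.3), and ratios carry exact Clopper-Pearson 95% intervals. Differences between genes carry the exact conditional interval of the odds ratio of 4 counts. Genes that reached 10 counts in one library or both entered the medians and the numbers of genes past a ratio. Transcript lengths and positions came from GENCODE vM21 (GRCm38) by symbol, and promoter windows from RefSeq GRCm38.p6. The computations, tested on simulated data, ran in Python 3.11.15 with scipy 1.17.1, pandas 2.3.3, numpy 2.4.6 and matplotlib 3.10.9.

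The 10 genes, the 21 gene lists and the pairs compared were chosen with earlier results of these data known. The text names the 10 genes, genes of 9 pathway lists with 50 counts or more in one library, from other lists the 4 genes with the largest absolute log2 ratio and 100 counts or more, and the 3 genes nearest to 4 of the enzymes. Asxl3, Mki67, Lgr5, Gnas, Dlk1, Kcnq1, Phlda2, Slc22a18, Tdrd1, Syce1, Stag3, Brdt, Gata4, Gata6, Hoxb3, Hoxb4, Txlng, the mesenchymal and immune markers and the comparisons so marked were chosen after their values were seen. Other settings tried were scaling by total counts, by upper quartile, by size factors of DESeq2 1.42.0 or to a median of 0 over all genes, 2 added counts, the control library thinned to the depth of the other, other count minimums, list means and median transcript lengths.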

Additional observations from a re-analysis of the deposited data

How the results depend on the processing

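The scaling decided the direction of 1 of the 10 genes, Ezh1, whose log2 ratio of 0.24 became -0.0195 with total counts. The other 9 kept their direction over the 6 alternatives (other scalings, a prior count and thinning), and of all 60 values 44 stayed within the counting interval of the gene, while 15 and that of Ezh1 with total counts did not. Uhrf1 ranged from -4.43 to -4.09, Dnmt1 from -3.50 to -3.16, Tet1 from -4.59 to -3.93, Ezh2 from -1.66 to -1.31 and Suz12 from -0.997 to -0.65. Total counts lowered all ratios by 0.26 and were the setting with the largest shift of the median of all genes. In all 6 alternatives 5 of the genes were at -1 or lower and none at 1 or higher, and 3 were at -2 or lower, or 4 with total counts. Of 189 alternative values of the lists, medians under other settings or the mean, 144 stayed within the counting interval of the gene nearest the median, placed around it, and 45 did not. Levels per length depended on the transcript chosen most for Dnmt3a and Tet1.

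No paired analysis was possible because each condition has 1 library. For the same reason no replicate was left out, and culture, library and treatment cannot be told apart. Counting error is small for most of the 10 genes and limits Tet1, with 5 counts in the DSS library. Genes without a row were not analyzed here.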

Other observations

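Genes that supply methyl groups were among the lower ones in the DSS library. Of 17 genes of the methionine and folate cycles and related steps, 10 had a log2 ratio of -1 or lower and 1 of 1 or higher, against 20.2% and 19.3% of all genes. The median was -1.62 and the mean -1.25, and with 10 counts required in both libraries the median was -1.31. Shmt1, which passes serine carbons to folate in the cytosol, had 6067 and 411 counts and a ratio of -3.50, and its mitochondrial paralog Shmt2 had 10326 and 2102 counts and a ratio of -1.91. Mtr, methionine synthase, was at -2.27 from 978 and 155 counts, and Mthfd1, a folate enzyme that serves purine and thymidylate synthesis as well, at -2.13 from 9624 and 1681. Ahcy, which clears the S-adenosylhomocysteine left by every methyltransferase, had 21132 and 4214 counts and a ratio of -1.94. Mat2a, which makes the methyl donor S-adenosylmethionine, was level at 0.06 from 11189 and 8900 counts. Ahcyl2, an AHCY-like protein, was at 1.37. Cbs had the lowest ratio of the list, -5.17, from 425 and 9 counts, and reached the count minimum only through the control library.

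Of 41 loci known as polycomb targets, 30 (most of them Hox genes) were not analyzed here, and 8 of the other 11 passed the count minimum, with a median of 1.17 (0.92 with total counts) and 4 of the 8 at 1 or higher, against 19.3% of all genes. Cdkn2b, which encodes the cell cycle inhibitor p15, had 768 and 3405 counts and a ratio of 2.54. Pax6 and Nkx2-2, transcription factors of enteroendocrine cells, had ratios of 2.10 and 1.80 from 163 and 535 and from 308 and 818 counts. The 8 enteroendocrine markers had a median of 2.32 and a mean of 1.73. Of these 8, 7 were at 1 or higher, against 19.3% of all genes, though with total counts not all 7 reached 1. The highest were Sct at 3.46, Gip at 2.90 and Chga at 2.60. The other, Neurog3, the factor of enteroendocrine progenitors, was at -3.14 from 692 and 60 counts. Hoxb4, the remaining polycomb target at 1 or higher, was at 1.39 (0.45 to 2.39) from only 15 and 30 counts. Cdkn1c, which is also imprinted, was at 0.96, and the median of the 8 targets lay between Hoxb4 and Cdkn1c. Gata4 and Gata6, factors of the gut epithelium, were at -0.18 from 14308 and 9647 counts and at 0.39 from 5916 and 5935, and Hoxb3 was at -0.28 from 54 and 34. Paneth cell markers had a median of -1.13 over 8 genes. The lowest were Defa17 at -3.87, Defa22 at -2.95, Defa24 at -2.19 and Mmp7 at -1.19. The part of these cell type markers in the ratios of the polycomb targets was not tested.

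Imprinted genes, whose parental alleles carry lasting methylation, had ratios on both sides of 0. Over 17 genes the median was -0.00, with 6 at -1 or lower and 4 at 1 or higher, beside 20.2% and 19.3% of all genes. Gnas had 556 and 555 CPM. Meg3 and Dlk1, neighbors in one imprinted cluster, had ratios of 3.45 from 12 and 100 counts and 2.23 from 121 and 433, and Peg3 had 247 and 1509 counts, or 3.45 and 27.6 CPM. Ascl2, a stem cell factor, was at -4.31 from 596 and 23 counts, Grb10 at -3.14 from 115 and 10, and Phlda2 and Kcnq1, of the same cluster as Ascl2, at -2.29 and -2.55. Other genes of that cluster were on the other side, Slc22a18 at 1.22 (below 1 with total counts) from 1799 and 3199 counts and Cdkn1c at 0.96 from 284 and 422. Parental alleles were not told apart in these counts.

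Of 22 germline genes known to be silenced by promoter methylation, 16 were not analyzed here. The other 6 summed to 9.26 CPM in control and 5.62 CPM in DSS, all 6 had a ratio below 0, and their median was -0.99. It was -0.35 over those with at least 10 counts in both libraries, which leaves out Tdrd1 with 93 and 6 counts and Syce1 with 38 and 7. Piwil2 had 313 and 185 counts. Prdm9, a histone methyltransferase best known from meiosis, had 2330 and 2161 counts, or 32.6 and 39.5 CPM and 9.41 and 11.4 RPKM. DNA methylation and histone marks were not measured here.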
